A study of Mus musculus with 14 samples.

Results

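The mouse mitochondrial genome supplied 37 of the 40800 genes in the deposited count table, namely every gene whose symbol begins with mt-. Each symbol had 1 row in the table, and all 37 passed the filter on low counts. They are 13 mRNAs, 2 ribosomal RNAs (rRNAs) and 22 transfer RNAs (tRNAs), and the 3 classes are described apart. Reads came from mouse embryonic fibroblasts (MEFs), connective-tissue cells taken from embryos and grown in a dish, with 2 libraries in each of 7 groups. The groups were MEFs starved of amino acids for 3, 6 and 12 h, MEFs starved of glucose for 3, 6 and 12 h, and unstarved control MEFs at 0 h. Starved cells were kept in DMEM lacking either amino acids or glucose, with dialyzed serum, while control cells came from high-glucose DMEM with ordinary serum. All cells were trypsinised and stored frozen before sequencing, and the control cells were frozen in serum that had not been dialyzed. The starvation, the change of serum and the hours in new medium therefore cannot be told apart in any comparison with the control. The strain, age and genotype of the embryos, and the way RNA was selected, are not given in the sources used here.

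Mitochondrial DNA is a small circle held in many copies per cell, and both of its strands are transcribed as long precursors by the polymerase POLRMT with the factors TFAM and TFB2M. In most places tRNA genes lie between the rRNA and mRNA genes, and cutting the precursor at the ends of the tRNAs, by RNase P and ELAC2, releases the individual RNAs. The mRNAs encode core subunits of respiratory complexes I, III, IV and V, whose other subunits are encoded in the nucleus, and the rRNAs and tRNAs serve the mitochondrial ribosome that translates them.

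The tRNA results centre on 10 genes in 4 stretches of the circle, and their sequences are shown to identify them. Each is given 5′ to 3′ as DNA, from the GENCODE M21 transcripts on GRCm38, with the anticodon in capitals. The genes for alanine, asparagine, cysteine and tyrosine lie side by side on the minus strand at chrM:5018-5086, chrM:5089-5159, chrM:5192-5257 and chrM:5260-5326. The gene for proline, also on the minus strand, lies at chrM:15356-15422. The genes for histidine, serine 2 and leucine 2 form a run on the plus strand at chrM:11546-11612, chrM:11613-11671 and chrM:11671-11741, and the last 2 of them share 1 base. The methionine gene, on the plus strand at chrM:3845-3913, lies next to the glutamine gene on the minus strand at chrM:3772-3842.
mt-Ta: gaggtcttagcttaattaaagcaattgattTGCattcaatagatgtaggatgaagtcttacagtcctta
mt-Tn: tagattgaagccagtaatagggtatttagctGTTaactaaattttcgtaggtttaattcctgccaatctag
mt-Tc: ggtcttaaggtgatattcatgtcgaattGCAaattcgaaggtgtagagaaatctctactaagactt
mt-Ty: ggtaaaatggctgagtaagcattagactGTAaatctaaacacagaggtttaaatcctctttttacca
mt-Tp: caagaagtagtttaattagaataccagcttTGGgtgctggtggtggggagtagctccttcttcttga
mt-Th: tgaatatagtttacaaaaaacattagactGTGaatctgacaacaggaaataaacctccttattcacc
mt-Ts2: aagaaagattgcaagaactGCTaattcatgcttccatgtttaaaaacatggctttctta
mt-Tl2: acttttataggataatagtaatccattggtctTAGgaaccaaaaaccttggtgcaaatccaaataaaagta
mt-Tm: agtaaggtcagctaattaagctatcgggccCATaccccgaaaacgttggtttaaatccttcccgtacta
mt-Tq: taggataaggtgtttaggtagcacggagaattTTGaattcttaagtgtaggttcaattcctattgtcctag

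Counted reads ranged from 35270751 to 55349673 per library, and 3.95% to 6.58% of them fell on the 37 genes. Of the mitochondrial reads nearly all lay on the mRNAs, since rRNA genes took 0.0505% to 0.101% and tRNA genes 0.0497% to 0.0842% of a library. Of 12 fibroblast markers 3 were below 1 CPM (reads scaled to a common library size with TMM factors) in every library, namely Lum, which was at 0 throughout, Thy1 and Dcn, while Col1a1, Col1a2, Fn1 and Vim were abundant. The 12 together came to 2472 and 2269 CPM at 12 h without amino acids, 5472 and 5518 at 12 h without glucose and 8541 and 7738 in the control, with a range of 2269 to 9348 over all libraries. The 4 endothelial markers, 3 of them below 1 CPM in every library, came to between 12.6 and 23.5 CPM in the starved libraries and 4.21 and 5.08 in the control, nearly all of it Kdr. The part of these markers in the results was not tested. Marker lists of other cells summed to 14.9 to 31.1 CPM for neurons, 14.4 to 23.9 for macrophages, and at most 5.78 for skeletal muscle, 1.61 for heart, 1.07 for red cells and 0.345 for epithelium. The control libraries differed most from each other, with a median coefficient of variation of 15.2% over the 13 mRNAs against 1.7% to 10.5% in the starved groups. All comparisons with the control share these control libraries, so the values of different starvations are given side by side only.

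In the unstarved cells the mRNA levels, as CPM per kilobase of transcript, spanned about an order of magnitude. The ATP synthase mRNAs mt-Atp8 and mt-Atp6, which overlap each other on 1 transcript, were at the top with 10376 and 13844 for mt-Atp8 and 9035 and 11630.3 for mt-Atp6 in the control libraries. The cytochrome c oxidase mRNAs followed, mt-Co2 with 7278 and 8263 and mt-Co1 with 6509 and 7238 CPM per kb, and mt-Co3 with 4854 and 5391. For mt-Nd1, a complex I subunit, the values were 4757 and 6012, and for mt-Cytb, the complex III subunit, 3929 and 4381. The pairs of control values overlapped between mt-Atp8 and mt-Atp6 and between mt-Nd1 and mt-Co3. Within each control library mt-Atp8 was above mt-Atp6, while the order of mt-Nd1 and mt-Co3 differed between the libraries. Below them came the complex I mRNAs mt-Nd4l, mt-Nd2, mt-Nd4, mt-Nd3 and mt-Nd5, and mt-Nd6, the single mRNA on the minus strand, with means of 3058, 2568, 2485, 1438, 1255 and 1535 CPM per kb in that order. The control values of mt-Nd2 overlapped those of both mt-Nd4l and mt-Nd4, and the values of mt-Nd6, mt-Nd3 and mt-Nd5 overlapped each other. Within each control library mt-Nd4l was above mt-Nd2, and mt-Nd6 was above mt-Nd3 and mt-Nd3 above mt-Nd5. The order of mt-Nd2 and mt-Nd4 differed between the libraries. With so few control libraries these orders remain uncertain.

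Counted reads of the rRNAs were far below those of the mRNAs on the same scale. In the control libraries they came to 357 and 376 CPM per kb for mt-Rnr2, the large-subunit (16S) rRNA. For mt-Rnr1, the small-subunit (12S) rRNA, they came to 131 and 152. How RNA was selected is not given, and selection can favour a class. This scale therefore does not compare the amounts of mRNAs, rRNAs and tRNAs in the cells. Of the tRNA genes mt-Ts1 was highest at 3696 and 4649.8 CPM per kb, ahead of mt-Tl1 and mt-Te with means of 1257 and 1034, while mt-Tr, mt-Tf and mt-Tv were lowest with 20.7, 8.36 and 6.02. The mt-Ts1 gene lies antisense to the end of mt-Co1 and shares 3 bases with it, and its reads made up 2.39 to 2.87 per 100 mt-Co1 reads in all 14 libraries. In all, 16 of the 37 genes overlap a neighbour, by up to 43 bases in the case of mt-Atp8 and mt-Atp6. Whether counting used strand is not given in the sources used here, so reads of overlapping genes, and reads of a mature tRNA and of a longer precursor, cannot be told apart.

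The share of reads on mitochondrial mRNAs was below the control after 3 h without amino acids and above it after 3 h without glucose. The 13 mRNAs took 4.79% and 5.73% of reads in the control libraries at 0 h, 3.84% and 3.93% after 3 h without amino acids, 4.75% and 4.86% after 6 h and 4.26% and 4.82% after 12 h. Without glucose they took 6.41% and 6.34% at 3 h, 6.05% and 6.25% at 6 h and 5.01% and 4.96% at 12 h. All libraries at 3 and 6 h without glucose lay above both control libraries, and all libraries at 3 h without amino acids lay below them. The groups at 12 h, and that at 6 h without amino acids, overlapped the range of the control. With 2 libraries a group, an exact test of such a share cannot go below a two-sided p of 0.333, so none was made. In bulk RNA, less mitochondrial RNA per cell and more of the other RNAs per cell cannot be told apart.

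**Figure D1:**
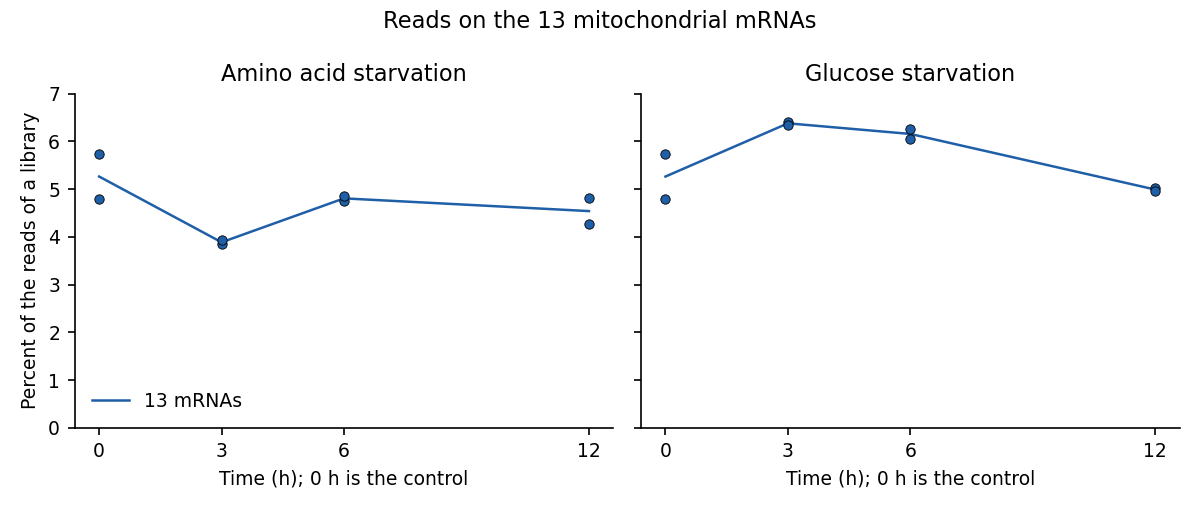
Percent of each library's reads on the 13 mitochondrial mRNAs against hours of starvation, amino acid starvation on the left and glucose starvation on the right, with the control at 0 h in both. Points are libraries and lines join group means. The glucose-starved libraries sit at 6.41% and 6.34% at 3 h, above both control libraries.

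Without amino acids most mRNAs fell at 3 and 12 h, and few were called at 6 h. At 3 h, 9 of 13 mRNAs were lower than in the control and 0 higher, with a median log2 fold change of -0.27, where 32.1% of all tested genes were called lower and 27.9% higher. At 12 h, 10 of 13 fell and 0 rose, with a median of -0.33, against 32% of tested genes called lower and 34.9% higher. At 6 h, 2 were higher and 2 lower, where 32.3% of tested genes were called higher and 33.3% lower, so 4 calls among 13 mRNAs was a smaller share than the 65.6% called among all tested genes. Both starved libraries lay below both control libraries for 9 mRNAs at 3 h, 3 at 6 h and 9 at 12 h, where 42%, 41.2% and 39% of tested genes did. They lay above for 0, 2 and 0 mRNAs, where 36.4%, 40.6% and 43.6% of tested genes did. A call here is a gene whose p from edgeR's quasi-likelihood test stayed under 0.05 after Benjamini-Hochberg adjustment over 17696 genes. At an unadjusted p under 0.05, 0 mRNAs were higher at 3 h and 0 at 12 h, and DESeq2 called 0 higher at either time.

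At 6 and 12 h the lowest log2 fold change among the mRNAs was that of mt-Nd1, a membrane-arm subunit of complex I. The mt-Nd1 mRNA had 4553 and 5754 CPM in the control libraries at 0 h, 3967 and 4141 at 3 h, 3939 and 4089 at 6 h and 2711 and 3245 at 12 h without amino acids. Every amino acid-starved library was below both control libraries. The log2 fold change was -0.35, adjusted p = 0.00287 at 3 h, -0.36, adjusted p = 0.00186 at 6 h and -0.79 ± 0.09 (SE), adjusted p = 5.08e-07 at 12 h, and these calls held with any 1 library left out. Second at 12 h was mt-Co2, a catalytic subunit of cytochrome c oxidase (complex IV), with 4978 and 5652 CPM in the control libraries at 0 h, 4095 and 4249 at 3 h, 4547 and 4634 at 6 h and 3430.0 and 3787 at 12 h. Its log2 fold changes were -0.35, -0.21 and -0.56 ± 0.06 (SE), adjusted p = 5.25e-09 for the last, at 3, 6 and 12 h, all 3 of them calls. The 12 h libraries of mt-Co2 lay wholly below the control libraries.

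At 3 h the lowest value was that of mt-Nd3, another complex I subunit (-0.45, adjusted p = 0.00899), which had 362 and 371 CPM then, against 431 and 569 in the control, and mt-Nd2 was at -0.37, adjusted p = 0.0162. The mRNA of mt-Co1, the catalytic core of complex IV, fell at 3 h (-0.27, adjusted p = 2.53e-04) and at 12 h (-0.27, adjusted p = 1.73e-04) and was at -0.02 at 6 h. That of mt-Atp6, the proton-channel subunit of ATP synthase, fell at 12 h (-0.41, adjusted p = 0.00107). For mt-Cytb, mt-Atp8, mt-Co3, mt-Nd2, mt-Nd3 and mt-Nd5 the 12 h decreases were -0.17, -0.36, -0.24, -0.53, -0.53 and -0.24. The complex I mRNA mt-Nd4 and its overlapping partner mt-Nd4l rose at 6 h, by 0.23 and 0.16, and were at 0.00 and -0.02 at 12 h. Values of mt-Nd6 were -0.21, -0.05 and -0.33, none of them a call. The 3 h count rested on single libraries, with 4 mRNAs lower without control replicate 2 and 5 without replicate 1 of the 3 h group, and 4 calls (mt-Co1, mt-Co2, mt-Nd1 and mt-Nd3) held throughout. At 6 h the count called higher was 0 without control replicate 1 or without starved replicate 1, 1 without starved replicate 2 and 4 without control replicate 2, and that called lower was 6 without control replicate 1 and 1 without control replicate 2. Scaled by library totals, 0 were higher and 3 lower at 6 h, and 6 were lower at 12 h.

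Without glucose, the mRNAs rose first and then divided. At 3 h, 10 of 13 were higher and 0 lower, with a median log2 fold change of 0.42, where 20.3% of tested genes were called higher and 23.1% lower. At 6 h, 7 were higher and 0 lower (median 0.28), where 23.3% of tested genes were called higher and 24.2% lower. At 12 h, 1 was higher and 7 lower (median -0.20), where 30.4% of tested genes were called higher and 28% lower. Both glucose-starved libraries exceeded both control libraries for 13 mRNAs at 3 h, 9 at 6 h and 1 at 12 h, where 30%, 35.3% and 39.8% of tested genes did. They lay below for 0, 0 and 9 mRNAs, where 36.3%, 36.8% and 37.7% of tested genes did. The 3 h count was 6 without glucose-starved replicate 1. The 6 h count was 4 without control replicate 1, with 1 mRNA then lower, 4 without glucose-starved replicate 2 and 11 without control replicate 2. The 12 h counts were 3 higher and 4 lower without control replicate 2. Neither an unadjusted p under 0.05 nor DESeq2 gave a lower mRNA at 3 or 6 h, and scaling by library totals left 3 higher at 6 h.

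The mRNA that stayed high was mt-Co1. It had 10057 and 11183 CPM in the control libraries at 0 h, 16334 and 16674 at 3 h, 17406 and 18106 at 6 h and 16861 and 16866 at 12 h without glucose. All glucose-starved libraries were above both control libraries, and the 3 times lay close together. Its log2 fold changes were 0.64 at 3 h, 0.74 at 6 h and 0.67 ± 0.06 (SE), adjusted p = 6.18e-11 at 12 h, all of which held with any 1 library left out. The other complex IV mRNAs did not keep their increase, with mt-Co2 at 0.42, 0.29 and -0.11 and mt-Co3 at 0.42, 0.28 and -0.10, neither of them called at 12 h. The ATP synthase mRNAs rose at 3 and 6 h and were at 0.04 for mt-Atp6 and 0.05 for mt-Atp8 at 12 h.

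The mRNA of mt-Cytb, the only complex III subunit the circle encodes, took the opposite course. It had 4495 and 5012 CPM in the control libraries at 0 h, 5925 and 6044 at 3 h, 4799 and 5102 at 6 h and 3050.4 and 3059 at 12 h without glucose. The 3 h libraries were above the control libraries and the 12 h libraries below them. Its log2 fold changes were 0.33, adjusted p = 5.78e-05 at 3 h, 0.06 at 6 h (not a call) and -0.64 ± 0.06 (SE), adjusted p = 4.59e-10 at 12 h. The largest 12 h decrease was that of mt-Nd3, a small complex I subunit, with 431 and 569 CPM in the control libraries at 0 h, 595 and 579 at 3 h, 472 and 507 at 6 h and 257 and 250.1 at 12 h. Its 12 h libraries had about the same level as each other and were below every other library of this gene. The log2 fold change at 12 h was -0.98 ± 0.12 (SE), adjusted p = 4.95e-05. The other complex I mRNAs called lower at 12 h were mt-Nd2 (-0.48), mt-Nd4l (-0.37), mt-Nd4 (-0.30), mt-Nd1 (-0.31) and mt-Nd5 (-0.18), and mt-Nd6 at -0.20 was not called. With any 1 library left out, the decreases of mt-Cytb, mt-Nd2, mt-Nd3 and mt-Nd4l held.

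**Figure D2:**
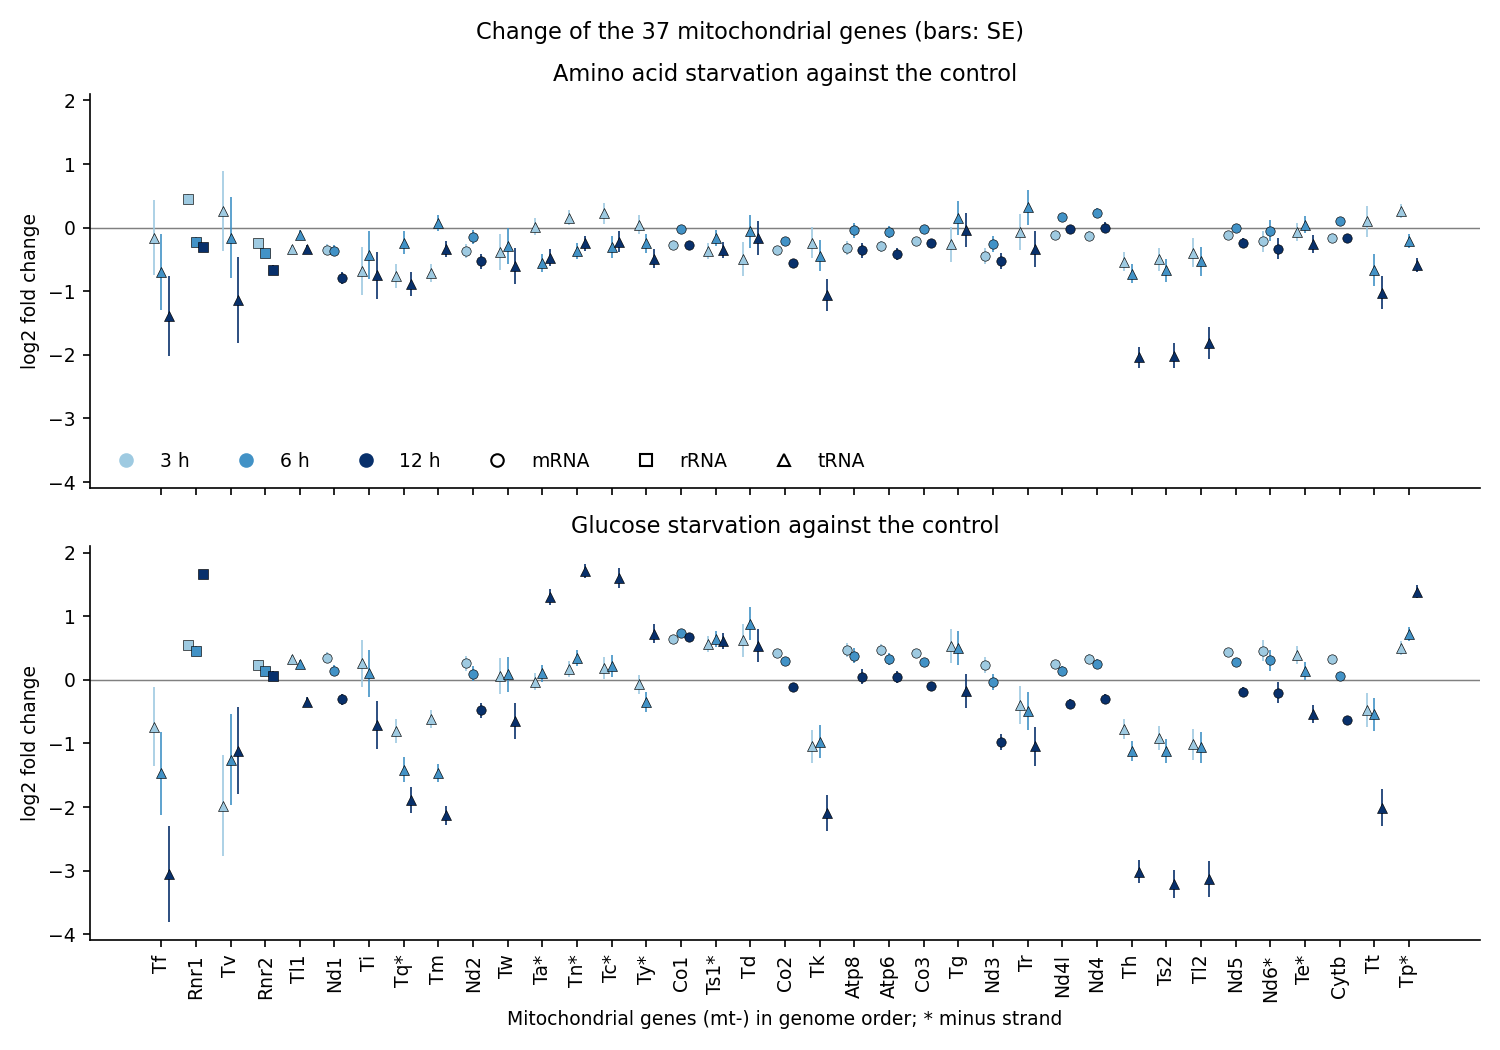
Log2 fold change against the control at 0 h, with its standard error, of all 37 genes in genome order, amino acid starvation above and glucose starvation below, where an asterisk marks minus-strand genes. Shades are 3, 6 and 12 h, circles mRNAs, squares rRNAs and triangles tRNAs. At 12 h without glucose mt-Rnr1 stands at 1.66 and mt-Th at -3.02, while the mRNAs range from -0.98 to 0.67.

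Amino acid and glucose starvation were also set against each other at the same hour. At 3 h all 13 mRNAs were lower without amino acids than without glucose, with a median log2 difference of -0.67, where 27.7% of tested genes were called lower and 26.7% higher. At 6 h, 7 were lower and 0 higher (median -0.30), where 32.3% of tested genes were called lower and 31.5% higher, and all 7 held with any 1 library left out. At 12 h, 4 were higher and 6 lower (median -0.13), where 32.5% of tested genes were called higher and 31.6% lower. The count higher at 12 h was near the share of all genes. The 4 higher ones were mt-Cytb (0.47, adjusted p = 1.22e-07), mt-Nd3 (0.45), mt-Nd4 (0.30) and mt-Nd4l (0.35), and without replicate 2 of the amino acid-starved group the count was 2. The lower ones were mt-Co1 (-0.94, adjusted p = 2.53e-14), mt-Co2 (-0.45), mt-Co3 (-0.14), mt-Nd1 (-0.48), mt-Atp6 (-0.46) and mt-Atp8 (-0.41). Scaling by library totals in place of TMM moved the median of all genes by 0.24 in this comparison, and then 5 mRNAs were higher and 3 lower.

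Between 3 and 12 h the 2 arms also differed. In glucose-starved cells 12 of 13 mRNAs were lower at 12 h than at 3 h and 0 higher, with a median log2 change of -0.62, where 25.5% of tested genes were called lower and 31.8% higher. The member not called was mt-Co1, at 0.03, and the largest decreases were those of mt-Nd3 (-1.21) and mt-Cytb (-0.97). In amino acid-starved cells 2 mRNAs were lower, mt-Nd1 (-0.44) and mt-Co2 (-0.21), and 0 higher, where 32.9% of tested genes were called lower and 35.5% higher. That count was 1 without replicate 2 of the 3 h group and 7 without replicate 2 of the 12 h group. With library totals the median of all genes moved by 0.31, and 7 mRNAs were called higher and 0 lower. The change in amino acid-starved cells minus that in glucose-starved cells, tested as an interaction, was called positive for 8 mRNAs and negative for 0, where 21.7% of tested genes were called positive and 25.7% negative. The largest were mt-Nd3 (1.13, adjusted p = 3.03e-04) and mt-Cytb (0.96, adjusted p = 2.53e-10). With library totals, which moved the median of all genes by 0.25, all 13 were called positive.

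A second fit used the reads on the 13 mRNAs of each library as its library size, so that it tests the makeup of the mitochondrial mRNA pool, whatever its total. On this scale 0 of 13 mRNAs were called after 3 h of either starvation. Among tested genes 52% were called without amino acids and 60.8% without glucose. The 13 mRNAs set this scale themselves, while every other gene also shifts with the size of the pool. The shares of tested genes called in this fit are therefore no yardstick for the makeup of the pool. The spread in this fit is also drawn from all tested genes, so an mRNA that is not called may still have changed share. For example, both mt-Co1 shares at 3 h without glucose, given below, lay above both control shares. At an unadjusted p under 0.05 the 3 h counts of edgeR were 0 without amino acids and 1, lower, without glucose. Without control replicate 1, 1 mRNA was lower at 3 h without amino acids, and 1 was higher and 2 lower at 3 h without glucose. After 12 h without glucose 1 mRNA rose in share and 6 fell, where 24.1% of tested genes were called higher and 25.9% lower. After 12 h without amino acids 2 rose and 2 fell, where 46.1% and 19.3% of tested genes were called higher and lower. Shares add up to a whole, so a rise of 1 abundant mRNA lowers the shares of the others. With the libraries scaled instead by RLE factors of the 13 mRNAs, the 12 h count of lower mRNAs was 2 without glucose and 1 without amino acids.

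The share of mt-Co1 in the pool grew along glucose starvation. It was 22.1 and 20.6% of mitochondrial mRNA reads in the control libraries at 0 h, 24 and 24.5% at 3 h, 27.9 and 27.6% at 6 h and 32.9 and 33.3% at 12 h. The libraries of the 4 times did not overlap, and those within a time lay close together. Its log2 share change against the control was 0.38 ± 0.09 (SE), adjusted p = 0.00141 at 6 h and 0.63 ± 0.10 (SE), adjusted p = 2.62e-06 at 12 h. The share of mt-Cytb fell to 5.96 and 6.04% at 12 h without glucose, against 9.87 and 9.22% in the control (-0.67 ± 0.09 (SE), adjusted p = 7.88e-07). That of mt-Nd3 was 0.502 and 0.494% at 12 h without glucose, against 0.947 and 1.05% in the control (a log2 change near -1.0, adjusted p = 5.37e-10). Per 100 mt-Cytb reads there were 553 and 551 mt-Co1 reads at 12 h without glucose and 224 and 223 in the control. The other shares that fell at 12 h were those of mt-Nd2, mt-Nd4l, mt-Nd4 and mt-Nd1, by log2 changes of -0.50, -0.40, -0.33 and -0.33. At 6 h without glucose mt-Co1 was the 1 mRNA higher in share, and mt-Nd3, mt-Cytb and mt-Nd2 were lower (-0.38, -0.30 and -0.25), where 7.42% and 45% of tested genes were called higher and lower. Without either glucose-starved library the 6 h count lower was 1, and with RLE factors of the 13 mRNAs it was 0.

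Without amino acids a different pair of complex I mRNAs moved apart. The share of mt-Nd4 was 6.71 and 6.98% in the control libraries at 0 h, 7.68 and 7.37% at 3 h, 8.44 and 8.24% at 6 h and 8.65 and 8.79% at 12 h. That of mt-Nd1 was 10.0 and 10.6% at 0 h, 9.61 and 9.83% at 3 h, 8.29 and 8.38% at 6 h and 7.39 and 7.74% at 12 h. Both genes encode complex I subunits, and the 6 and 12 h libraries of each lay outside the range of its control libraries. The log2 share change at 12 h was 0.35 ± 0.09 (SE), adjusted p = 0.00181 for mt-Nd4 and -0.44 ± 0.09 (SE), adjusted p = 1.40e-04 for mt-Nd1. Per 100 mt-Nd1 reads the mt-Nd4 reads numbered 117 and 114 at 12 h without amino acids and 67.1 and 65.9 in the control, while the glucose-starved libraries had 63.7 to 71.3. By 12 h mt-Nd4l also rose in share (0.33) and mt-Co2 fell (-0.21). At 6 h mt-Nd4 rose (0.29) and mt-Nd1 fell (-0.30), and these were the 2 calls, where 59.3% of tested genes were called. At 6 h the counts were 3 higher and 2 lower without control replicate 1, 2 and 2 without control replicate 2, and 0 and 0 without starved replicate 1. At 12 h they were 1 higher and 1 lower without starved replicate 1, and 1 lower without starved replicate 2, with the 12 h calls of mt-Nd4 and mt-Nd1 held throughout.

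Pairs of mRNAs that overlap had read ratios within narrow ranges over all 14 libraries. The mt-Atp8 reads numbered 33.9 to 36.8 per 100 mt-Atp6 reads, and the mt-Nd4l reads 24.3 to 28 per 100 mt-Nd4 reads. Reads counted on mt-Nd6, which is annotated on the opposite strand at the end of mt-Nd5, numbered 30.6 to 37.8 per 100 mt-Nd5 reads. Between the starvations, the pool at 12 h without amino acids had 8 mRNAs with a higher share and 1, mt-Co1 (-0.56 ± 0.10 (SE), adjusted p = 9.09e-06), with a lower share than at 12 h without glucose, where 46.3% and 16.2% of tested genes were called higher and lower. The difference in share was 0.84 ± 0.09 (SE), adjusted p = 8.97e-09 for mt-Cytb. At 6 h 3 were higher and 1 lower (45.7% and 14.6% of tested genes), and at 3 h 3 were higher and 0 lower (62.6% and 3.54% of tested genes). The 12 h count higher was 5 without glucose-starved replicate 2. That at 3 h was 1 without either amino acid-starved library and 0 without glucose-starved replicate 2. With RLE factors of the 13 mRNAs, 4 were higher and 4 lower at 12 h, and 0 higher at 3 h.

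**Figure D3:**
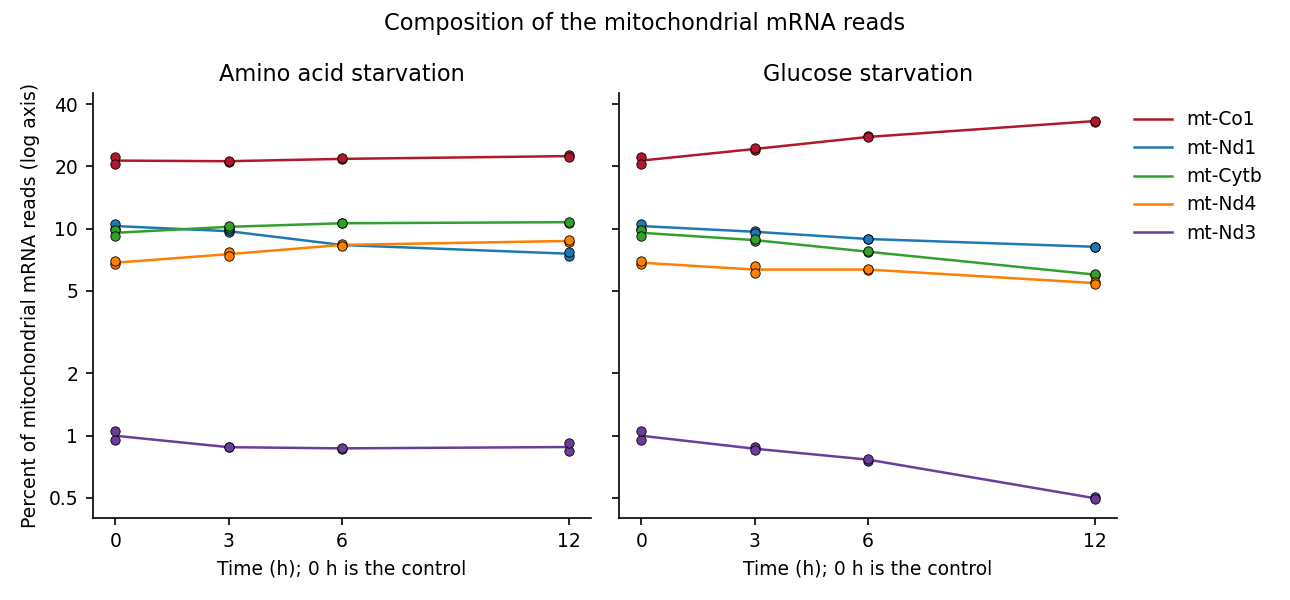
Percent of mitochondrial mRNA reads (log axis) on mt-Co1, mt-Nd1, mt-Cytb, mt-Nd4 and mt-Nd3 against hours of starvation, amino acid starvation on the left and glucose starvation on the right. Points are libraries and lines join group means. Without glucose mt-Co1 climbs to 32.9 and 33.3% at 12 h while mt-Cytb drops to 5.96 and 6.04%.

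The 2 rRNAs had the same sign and were both called at 3 h without glucose and at 6 and 12 h without amino acids. At 3 h without amino acids they were called in opposite directions, and at 6 and 12 h without glucose 1 of them was called. The small-subunit rRNA mt-Rnr1 had 125 and 145 CPM in the control libraries at 0 h, 192 and 201 at 3 h, 182 and 189 at 6 h and 417 and 436 at 12 h without glucose. All glucose-starved libraries were above both control libraries, and the 12 h libraries stood above every other library. The log2 fold changes were 0.54, adjusted p = 8.29e-07 at 3 h, 0.46, adjusted p = 8.37e-06 at 6 h and 1.66 ± 0.07 (SE), adjusted p = 2.17e-16 at 12 h, which is 3.16-fold. Without amino acids mt-Rnr1 had 183 and 185 CPM at 3 h, 111 and 121 at 6 h and 98.8 and 119 at 12 h. It rose at 3 h (0.45, adjusted p = 6.67e-06) and fell at 6 h (-0.22, adjusted p = 0.0107) and 12 h (-0.31, adjusted p = 5.35e-04). The 6 h call was lost without control replicate 2 and without replicate 1 of the starved group, where the log2 fold changes were -0.10 (adjusted p = 0.258) and -0.16 (adjusted p = 0.133).

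The large-subunit rRNA mt-Rnr2 had 564 and 595 CPM in the control libraries at 0 h, 487 and 488 at 3 h, 429 and 448 at 6 h and 337 and 396 at 12 h without amino acids. All of these starved libraries were below both control libraries. Its log2 fold changes were -0.25, -0.40 and -0.66 ± 0.07 (SE), adjusted p = 2.89e-08 for the last, at 3, 6 and 12 h, the first of them lost without control replicate 2 (-0.21, adjusted p = 0.0948). Without glucose mt-Rnr2 was at 0.24, adjusted p = 0.0124 at 3 h, a call that was lost without control replicate 1, control replicate 2 or glucose-starved replicate 1 (0.19, 0.27 and 0.09), and at 0.13 and 0.06 at 6 and 12 h, which were not calls. There were 29.3 and 30.0 mt-Rnr1 reads per 100 mt-Rnr2 reads at 12 h without amino acids, 67.6 and 73.5 at 12 h without glucose and 22.1 and 24.4 in the control. At 12 h both rRNAs were lower without amino acids than without glucose, with log2 differences of -1.97, adjusted p = 4.98e-18 for mt-Rnr1 and -0.72, adjusted p = 7.42e-09 for mt-Rnr2.

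Reads of some other noncoding RNAs also moved over the same libraries, though not all in the same direction. Rn18s-rs5, a nuclear gene named as a sequence related to 18S rRNA, had 549.6 and 570.3 CPM in the control libraries at 0 h. Without glucose it had 878 and 1832 at 3 h, 1866 and 1994 at 6 h and 2524 and 2737 at 12 h. Without amino acids it had between 554 and 656. The nuclear long noncoding RNA Neat1 had 1154 to 1799 CPM without glucose and 297 and 309.8 in the control. For Malat1, another, the values were 358 and 239 CPM at 12 h without glucose and 158 and 191 in the control. The noncoding RNA Rpph1, with few reads, was lower at 12 h without glucose (0.446 and 0.372 CPM) than in the control (0.654 and 0.657). So was the histone gene H2ac8, with 0.334 and 0.319 against 0.894 and 0.92 CPM. These companions were chosen after values had been seen, and their part in the mt-Rnr1 result was not tested.

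**Figure D4:**
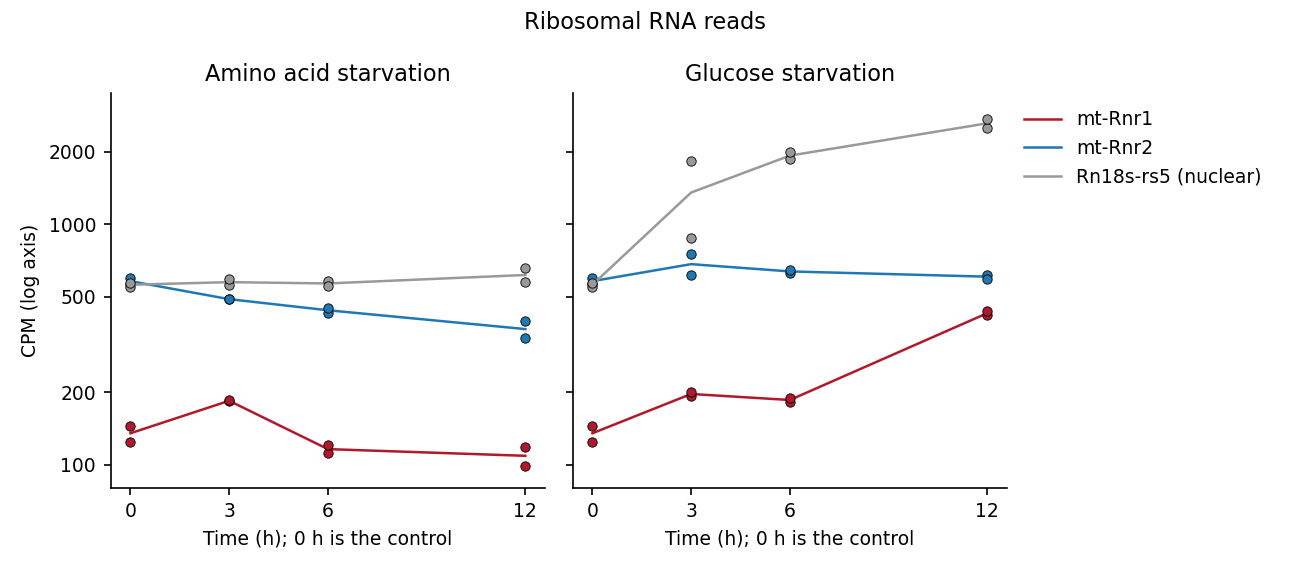
CPM (log axis) of mt-Rnr1, mt-Rnr2 and the nuclear 18S-related gene Rn18s-rs5 against hours of starvation. Amino acid starvation is on the left and glucose starvation on the right. Points are libraries and lines join group means. Without glucose at 12 h mt-Rnr1 is at 417 and 436 CPM, and mt-Rnr2 at 617 and 593 CPM.

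Among the 22 tRNA genes, whose reads are few, calls at 12 h without glucose differed between genes annotated on the 2 strands. Whether counting used strand is not given, so the strand that the reads came from is not known. Of the 8 minus-strand genes 6 rose and 2 fell (median log2 fold change 1.01), and of the 14 plus-strand genes 0 rose and 9 fell (median -1.56), where 30.4% of tested genes were called higher and 28% lower. With any 1 library left out, all 6 increases and 10 of the 11 decreases held, mt-Te being the exception. In cells 12 h without amino acids 0 rose and 12 fell, against 32% of tested genes called lower. Of these decreases 5 were on the minus strand (median -0.41) and 7 on the plus strand (median -0.89), and 8 held with any 1 library left out. At the earlier times without amino acids the tRNA calls were 1 higher and 6 lower at 3 h, where 27.9% and 32.1% of tested genes were, and 0 higher and 5 lower at 6 h, where 32.3% and 33.3% were. Without glucose they were 4 higher and 7 lower at 3 h (20.3% and 23.1% of tested genes) and 5 higher and 6 lower at 6 h (23.3% and 24.2%). Apart from the few increases without amino acids, these counts at 3 and 6 h were not far from the shares of all genes.

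The run of minus-strand genes for alanine, asparagine, cysteine and tyrosine rose as a block late in glucose starvation. Their summed level was 36.9 and 43.5 CPM in the control libraries at 0 h, 47.1 and 38 at 3 h, 43.3 and 45.3 at 6 h and 106 and 112 at 12 h without glucose. The 12 h libraries stood above all others, and the earlier ones lay nearer the control. The log2 fold change at 12 h was 1.71 ± 0.12 (SE), adjusted p = 3.38e-13 for mt-Tn, 1.60, adjusted p = 2.14e-08 for mt-Tc, 1.30, adjusted p = 5.36e-10 for mt-Ta and 0.73, adjusted p = 9.26e-05 for mt-Ty. Without amino acids the same 4 genes together had 44.6 and 42.7 CPM at 3 h, 31.8 and 30.2 at 6 h and 26.5 and 36.9 at 12 h. Of them mt-Ta (-0.47) and mt-Ty (-0.49) fell at 12 h, and mt-Tn and mt-Tc were at -0.25 and -0.22, not calls. The calls of mt-Ta and mt-Ty were each lost with at least 1 library left out.

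The proline gene mt-Tp had 13 and 12.5 CPM in the control libraries at 0 h, 17.6 and 18.3 at 3 h, 20.5 and 21.5 at 6 h and 35.5 and 31.1 at 12 h without glucose. All glucose-starved libraries lay above the control libraries, those at 12 h furthest. The increases were 0.50, 0.72 and 1.39 ± 0.11 (SE), adjusted p = 2.78e-12 for the last, at 3, 6 and 12 h. Without amino acids mt-Tp was at 0.26, adjusted p = 0.0389 at 3 h, a call not held with 1 library left out, and fell at 12 h (-0.59, adjusted p = 3.91e-05). Of the other minus-strand genes mt-Ts1 rose at 12 h without glucose (0.61), while mt-Tq (-1.88, adjusted p = 3.69e-09) and mt-Te (-0.54, adjusted p = 0.00752) fell.

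The plus-strand run of histidine, serine 2 and leucine 2 genes held 3 of the 4 lowest log2 fold changes at 12 h without glucose. Their summed level was 31 and 33.8 CPM in the control libraries at 0 h, 16 and 19 at 3 h, 13.3 and 16.8 at 6 h and 4.74 and 2.47 at 12 h without glucose. Without amino acids it was 23.6 and 23 CPM at 3 h, 19.7 and 21.7 at 6 h and 10.0 and 6.78 at 12 h. Every starved library was below both control libraries, and the 12 h libraries were lowest in each arm. The number of reads behind these values was 86 and 43 for mt-Th at 12 h without glucose, against 491 and 545 in the control. The log2 fold changes at 12 h without glucose were -3.02 ± 0.18 (SE), adjusted p = 1.63e-14 for mt-Th, -3.21, adjusted p = 1.03e-12 for mt-Ts2 and -3.12, adjusted p = 3.70e-08 for mt-Tl2. In the amino acid-starved cells they were -2.04, -2.02 and -1.81, also calls. Set against 12 h without glucose, the 3 genes were higher without amino acids, by 0.98, 1.19 and 1.31.

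The methionine gene mt-Tm and its minus-strand neighbour mt-Tq both fell along glucose starvation. For mt-Tm the level was 13.1 and 14.1 CPM in the control libraries at 0 h, 8.88 and 8.9 at 3 h, 4.03 and 5.77 at 6 h and 3.03 and 3.24 at 12 h without glucose. All of these starved libraries were below the control libraries. The log2 fold changes were -0.62, -1.47 and -2.13 ± 0.15 (SE), adjusted p = 5.21e-13 for mt-Tm, and -0.81, -1.41 and -1.88 for mt-Tq, at 3, 6 and 12 h. Without amino acids mt-Tm had 9.22 and 7.43 CPM at 3 h, 14 and 14.7 at 6 h and 10.1 and 11.5 at 12 h. Its log2 fold changes were -0.71, 0.07 and -0.33, of which the first and last were calls. The last was lost with at least 1 library left out. Lysine and threonine genes, mt-Tk and mt-Tt, fell at 12 h without glucose, with log2 fold changes of -2.09 and -2.01. The phenylalanine gene mt-Tf, which precedes mt-Rnr1, had 3 and 3 reads at 12 h without glucose and 20 and 32 in the control (-3.05, adjusted p = 9.79e-04), and mt-Tv, which follows mt-Rnr1, never exceeded 27 reads.

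**Figure D5:**
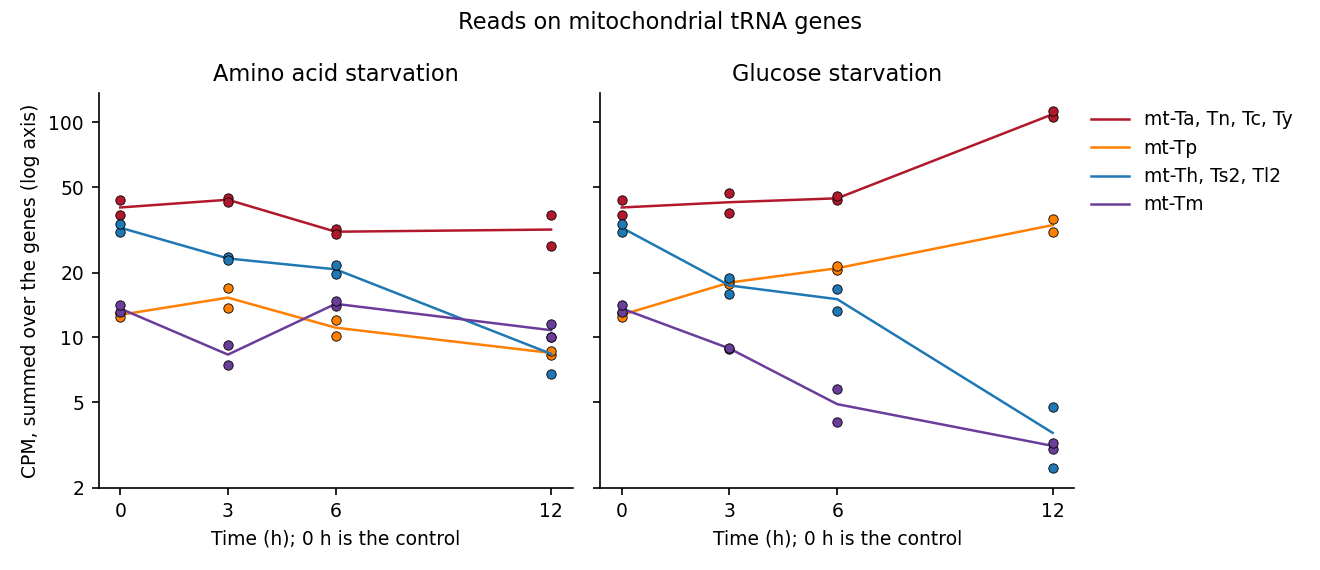
CPM (log axis) of 4 tRNA groups against hours of starvation, the summed mt-Ta, mt-Tn, mt-Tc and mt-Ty, then mt-Tp, the summed mt-Th, mt-Ts2 and mt-Tl2, and mt-Tm, with amino acid starvation on the left and glucose starvation on the right. Points are libraries and lines join group means. At 12 h without glucose the first sum reaches 106 and 112 CPM and the third drops to 4.74 and 2.47 CPM.

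At 12 h 8 of the 22 tRNA genes were higher and 7 lower without amino acids than without glucose. Among tested genes 32.5% and 31.6% were called higher and lower, so these counts were near the shares of all genes. The lower ones included mt-Tn (-1.96), mt-Tc (-1.82), mt-Ta (-1.77) and mt-Tp (-1.98), and the higher ones mt-Tm (1.79) and its neighbour mt-Tq. At 3 h the tRNA calls were 3 higher and 5 lower (26.7% and 27.7% of tested genes), and at 6 h 5 higher and 7 lower (31.5% and 32.3%), which at 6 h is near the shares of all genes. The change from 3 to 12 h was 1 higher and 10 lower without amino acids (35.5% and 32.9% of tested genes), and 5 higher and 10 lower without glucose (31.8% and 25.5%). As an interaction, 6 tRNA genes were called positive and 5 negative (21.7% and 25.7% of tested genes), near those shares.

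Nuclear genes for the machinery that makes and handles these RNAs were examined beside them. Of 56 such genes, 31 were higher and 13 lower at 12 h without amino acids (median log2 fold change 0.26) and 33 higher and 6 lower at 12 h without glucose (median 0.33), where 34.9% and 30.4% of tested genes were called higher and 32% and 28% lower, and all tested genes had medians of 0.06 and 0.01. At 3 h the counts were 18 higher and 25 lower without amino acids, where 27.9% and 32.1% of tested genes were called, and 14 higher and 14 lower without glucose, near the 20.3% and 23.1% of tested genes. Among 9 transcription genes the counts were 7 higher and 0 lower of 9 at 12 h without amino acids and 7 higher and 0 lower at 12 h without glucose. Tfam, which packages and activates the DNA, averaged 95.4 ± 3.29 CPM at 12 h without amino acids, 99.1 ± 0.946 at 12 h without glucose and 67.4 ± 4.65 in the control (SD, n = 2), with log2 fold changes of 0.50, adjusted p = 2.30e-08 and 0.56, adjusted p = 5.46e-09. Polrmt, the polymerase, changed by 0.70, adjusted p = 2.35e-10 at 12 h without amino acids, -0.46 at 3 h without glucose and 0.34 at 12 h without glucose. Tfb2m, which opens the promoter, rose by 1.51 at 3 h and 0.81 at 12 h without amino acids, and by 0.78 at 3 h and 0.95 at 12 h without glucose.

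At 12 h without amino acids and without glucose, 34.9% and 30.4% of all tested genes were called higher, and 32% and 28% lower. Among 8 nucleoid and replication genes the counts were 5 higher and 2 lower of 8 at 12 h without amino acids and 5 higher and 0 lower at 12 h without glucose. Lonp1, the matrix protease that degrades TFAM among other proteins, averaged 382 ± 17.9 CPM at 12 h without amino acids, 542 ± 3.19 at 12 h without glucose and 129.8 ± 20.6 in the control, with log2 fold changes of 1.56, adjusted p = 1.28e-17 and 2.06, adjusted p = 6.59e-20. For the 12 RNA processing genes the counts were 6 higher and 3 lower of 12 at 12 h without amino acids and 7 higher and 2 lower at 12 h without glucose. Hsd17b10, an RNase P subunit, fell at 12 h without amino acids (-1.79, adjusted p = 1.03e-16), and Trmt10c, another, rose (0.69). In glucose-starved cells at 12 h Mtpap, the mitochondrial poly(A) polymerase, Elac2, which cuts the 3′ end of tRNAs, and Trmt10c rose by 0.98, 0.62 and 0.76. Among 8 stability and decay genes the counts were 3 higher and 3 lower of 8 at 12 h without amino acids and 6 higher and 1 lower at 12 h without glucose. The counts without amino acids were near the shares of all genes. Lrpprc, which stabilises mitochondrial mRNAs, rose by 0.86, adjusted p = 1.24e-14 at 12 h without glucose and by 0.41 at 12 h without amino acids. Rexo2, which clears short RNA fragments, changed by -1.01 at 12 h without amino acids and by 0.42 at 12 h without glucose.

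For 8 genes of rRNA modification and assembly the counts were 6 higher and 1 lower of 8 at 12 h without amino acids and 4 higher and 0 lower at 12 h without glucose. In these 2 comparisons 34.9% and 30.4% of tested genes were called higher, and 32% and 28% lower. Nsun4, a methyltransferase of mt-Rnr1, and Eral1, a chaperone of mt-Rnr1, rose by 0.93 and 0.83 at 12 h without glucose, and Mrpl12, a large-subunit protein, fell at 12 h without amino acids (-1.41, adjusted p = 6.94e-18). Among 11 translation factors the counts were 4 higher and 4 lower of 11 at 12 h without amino acids and 4 higher and 3 lower at 12 h without glucose. These were near the shares of all genes. At 3 h without amino acids 1 was higher and 9 lower, where 27.9% and 32.1% of tested genes were called. Tufm, the elongation factor that brings charged tRNAs to the ribosome, fell at 12 h without amino acids (-1.54, adjusted p = 6.20e-19). Among 8 nuclear regulators the counts were 3 higher and 5 lower of 8 at 12 h without amino acids and 3 higher and 2 lower at 12 h without glucose. Apart from the decreases without amino acids, these were near the shares of all genes. Ppargc1b, a coactivator of mitochondrial genes, averaged 0.534 ± 0.222 CPM at 12 h without amino acids and 2.77 ± 0.673 in the control (-2.38, adjusted p = 1.31e-08), and 6.06 ± 0.866 at 3 h without glucose (1.13, adjusted p = 1.15e-04). Ppargc1a, its better-known relative, was below 1 CPM in every library.

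The nuclear mRNAs for partner subunits of the same complexes were set beside the mitochondrial ones. Of 71 nuclear subunit genes, 0 were higher and 49 lower at 3 h, 1 higher and 66 lower at 6 h and 1 higher and 55 lower at 12 h without amino acids, with medians of -0.23, -0.48 and -0.46. In the same comparisons 27.9%, 32.3% and 34.9% of tested genes were called higher and 32.1%, 33.3% and 32% lower. The 13 mitochondrial mRNAs had medians of -0.27, -0.04 and -0.33 at the same times. Without glucose the nuclear counts were 15 higher and 2 lower at 3 h, 6 higher and 8 lower at 6 h and 18 higher and 20 lower at 12 h, with medians of 0.11, -0.03 and -0.02, while the mitochondrial medians were 0.42, 0.28 and -0.20. All tested genes were called higher in 20.3%, 23.3% and 30.4% and lower in 23.1%, 24.2% and 28% of cases at these times, so the 12 h nuclear counts were near the shares of all genes. Among subunits of complex I, at 12 h without amino acids, there were 0 higher and 4 lower of 7 mitochondrial, and 0 higher and 25 lower of 36 nuclear, mRNAs, and among those of complex IV 0 higher and 3 lower of 3 mitochondrial, and 0 higher and 11 lower of 11 nuclear, mRNAs. In complex V there were 0 higher and 2 lower of 2 mitochondrial, and 0 higher and 14 lower of 15 nuclear, mRNAs, and in complex III 0 higher and 1 lower of 1 mitochondrial, and 1 higher and 5 lower of 9 nuclear, mRNAs. Glucose starvation gave, at 12 h in complex I, 0 higher and 6 lower of 7 mitochondrial, and 12 higher and 8 lower of 36 nuclear, mRNAs, and in complex IV 1 higher and 0 lower of 3 mitochondrial, and 2 higher and 4 lower of 11 nuclear, mRNAs. In complex V there were then 0 higher and 0 lower of 2 mitochondrial, and 3 higher and 5 lower of 15 nuclear, mRNAs, and in complex III 0 higher and 1 lower of 1 mitochondrial, and 1 higher and 3 lower of 9 nuclear, mRNAs. The nuclear complex I gene Ndufb10 and complex V gene Atp5k fell at 12 h without amino acids, with log2 fold changes of -1.52 and -1.60, and the complex III genes Uqcrh and Uqcrq changed by -1.22 and 0.79 at 12 h without glucose. No test of mitochondrial against nuclear subunits as groups was made.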

How the data were processed

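Bulk RNA sequencing of MEFs gave 14 libraries in 7 labelled groups of 2. The values deposited are raw counts, 1 per transcript and library, which the authors made with STAR and bedtools on the genome build GRCm39, per the submitters' processing notes. Tool versions, the annotation release, the counting rules, strand and RNA selection are not given in the sources used here. Rows that name no gene (58) held 0% of reads. For each gene the transcript with the most reads over the libraries was used. Members were matched to GENCODE M21 on GRCm38 by transcript ID (37 of 37, all of equal length), which gave strand, order and sequence.

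Genes were filtered with filterByExpr, scaled with TMM, and fitted with edgeR 4.0.16 and limma 3.58.1 in R 4.3.3 (glmQLFit, robust) as 7 group means over all 14 libraries, with 7 residual degrees of freedom, a biological coefficient of variation of 5.78% and median prior degrees of freedom of 20.9. The 12 two-sided comparisons were adjusted by Benjamini-Hochberg over 17696 genes each, at 0.05. A second fit took the reads on the 13 mRNAs as library size, with no TMM factor. Counts simulated for 12 h without amino acids against the control (15951 genes) gave recoveries of 80.6%, 92.5% and 100.0% at log2 changes of 0.5, 1 and 2. Of 193 calls 11 were false. The simulation held libraries of these groups only and changed few genes, while the main fit used all 14 libraries and many genes were called. These rates therefore do not describe the main fit. Alternatives were RLE scaling, library totals, scaling on nuclear genes, DESeq2 1.42.0, no filter or a stricter one, only the groups compared, the replicate block, the mean over transcript rows, and each library left out. No label ties the paired libraries to separate cultures, so p-values reflect only how far these libraries differ, which may be technical spread. PCR reads are not independent molecules.

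The members and the gene lists were chosen with earlier results of these data known. All 37 genes are reported, and from each nuclear list the text names at most 3 called genes per comparison, taken by lowest p, besides Tfam, Polrmt, Lrpprc, Ppargc1a and Ppargc1b.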

Additional observations from a re-analysis of the deposited data

Results flagged for a closer look

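Results are listed here where the change from 3 to 12 h of amino acid starvation differed from the change over the same hours of glucose starvation, by the interaction test of edgeR with a Benjamini-Hochberg adjusted p under 0.05. Each value is the log2 change under amino acid starvation minus that under glucose starvation. Of the 13 mRNAs 8 met this, all with positive values, where 21.7% of tested genes were called positive. For the complex I mRNAs they were 1.13 for mt-Nd3, 0.76 for mt-Nd4, 0.72 for mt-Nd4l, 0.58 for mt-Nd2 and 0.50 for mt-Nd5. For mt-Cytb of complex III the value was 0.96, and for the complex IV mRNAs it was 0.48 for mt-Co3 and 0.32 for mt-Co2. With 1 library left out, the mt-Nd2 call was lost at least once, and the other 7 held.

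The small-subunit rRNA mt-Rnr1 had -1.88, since it fell between 3 and 12 h without amino acids and rose without glucose. The minus-strand tRNA genes mt-Tn, mt-Tc, mt-Ta, mt-Tp and mt-Ty had -1.95, -1.86, -1.82, -1.74 and -1.33, and these 5 calls held with any 1 library left out. Positive values were those of mt-Tm (1.89), mt-Tq (0.95), mt-Ts2 (0.78), mt-Te (0.74), mt-Th (0.74) and mt-Tl1 (0.66), of which mt-Th and mt-Ts2 were lost with at least 1 library left out. The nuclear 18S-related gene Rn18s-rs5 moved over the same libraries, and its part in these values was not tested.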

How the results depend on the processing

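Leaving out a library and scaling by library totals moved the most counts of mRNA levels, 19 over all left-out libraries and 7 with totals, while RLE scaling and scaling on nuclear genes moved 0. With library totals in place of TMM the median of all genes moved by 0.31 for 12 h against 3 h without amino acids, 0.25 for the interaction, 0.24 between the starvations at 12 h, and by -0.18 (3 h), 0.13 (12 h) without amino acids and -0.17 (3 h), -0.13 (6 h) and -0.10 (12 h) without glucose against the control. Counts of mRNAs then became 0 higher at 6 h and 6 lower at 12 h without amino acids, 3 higher at 6 h without glucose, 3 lower between the starvations at 12 h, 7 higher and 0 lower for 12 h against 3 h without amino acids, and 13 positive for the interaction. Values that changed sign, to be read against these shifts of all genes, were 0.10 for mt-Co3, 0.18 for mt-Nd5 and 0.24 for mt-Tl1 between the starvations at 12 h. For 12 h against 3 h without amino acids they were 0.27 for mt-Atp8, 0.30 for mt-Co1, 0.10 for mt-Co2, 0.27 for mt-Co3, 0.30 for mt-Cytb, 0.19 for mt-Nd5 and 0.31 for mt-Tl1, and for the interaction 0.21 for mt-Co1. Fitting only the groups compared gave 1 higher at 6 h without amino acids and 5 lower for 12 h against 3 h there, and no filter gave 4 lower in that last comparison. Of single-gene calls 241 of 255 stayed with DESeq2, 253 of 255 with RLE scaling and 221 of 255 with library totals, and scaling on nuclear genes only kept 255 of 255.

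Leaving out each library in turn gave these ranges of mRNAs called. Without amino acids against the control, 4 to 13 were lower at 3 h, 0 to 4 higher and 1 to 6 lower at 6 h, and 0 to 1 higher and 7 to 12 lower at 12 h. Without glucose, 6 to 13 were higher at 3 h, 4 to 11 higher and 0 to 1 lower at 6 h, and 1 to 3 higher and 4 to 10 lower at 12 h. Between the starvations at 12 h, 2 to 4 were higher. For 12 h against 3 h without amino acids, 1 to 7 were lower. At 6 h without amino acids mt-Atp8 ranged from -0.24 to 0.18 and mt-Td from -0.43 to 0.44, and at 12 h mt-Td ranged from -0.53 to 0.34, the high end always without control replicate 2. Of shares within the mRNA pool, 0 to 1 were lower at 3 h, 0 to 3 higher and 0 to 2 lower at 6 h, and 1 to 3 higher and 1 to 3 lower at 12 h without amino acids. Without glucose, 0 to 1 were higher and 0 to 2 lower at 3 h, and 1 to 4 lower at 6 h. Between the starvations 0 to 3 were higher at 3 h and 5 to 7 at 12 h. Where 1 library was left its spread is assumed to be that of the other groups.

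With RLE factors of the 13 mRNAs, shares lower were 1 at 12 h without amino acids, 0 at 6 h and 2 at 12 h without glucose, shares higher between the starvations were 0 at 3 h, and at 12 h there were 4 higher and 4 lower. Replicate numbers in the labels are shared between groups, but over 21 pairs the correlation of same-numbered libraries' deviations ran from -0.035 to 0.0536, so the numbers name libraries only. With the replicate number as a block, no level count moved by over 1.5 times. Shares lower with the replicate block were 1 at 3 h without amino acids, 2 at 3 h and 5 at 6 h without glucose and 1 between the starvations at 3 h, and at 6 h without amino acids 2 were higher and 2 lower. The cause of these shifts was not tested. With 2 libraries a group and control libraries that differed by up to 23.3% (coefficient of variation) in an mRNA, small changes against the control are uncertain, and repeating the tests of called genes with 1 library left out kept 938 calls and lost 162. The few reads of tRNA genes such as mt-Tv and mt-Tf limit what their values show.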
